A study of Ovis aries with 16 samples.

Results

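PTGS2 encodes cyclooxygenase-2, the inducible enzyme that converts arachidonic acid to prostaglandin H2. It is 1 of 1025 genes that could be named on the sheep array, and 2 of the array's 15008 different probes, A_70_P039256 and A_70_P039257, are all those whose gene name or mapped accession is PTGS2, so each is described apart. PTGS2 was selected on its measured levels in the hypoxia + ketamine and hypoxia control fetuses, and every difference that uses those fetuses is therefore given as a description without a test. RNA came from the frontal cortex of 16 catheterized late gestation fetal sheep, with 1 array per fetus. Normoxia control (n = 3) received neither stimulus nor drug, and normoxia + ketamine (n = 4) received 3 mg/kg of intravenous ketamine, an anesthetic that blocks NMDA-type glutamate receptors. Hypoxia control (n = 5) was exposed to 30 min of hypoxia by lowering the oxygen in the ewe's inspired gas, and hypoxia + ketamine (n = 4) received the same dose of ketamine before the same 30 min. All fetuses carried vascular catheters placed under isoflurane anesthesia some days earlier, and all were then left in normoxia for 23.5 h, so that every level refers to 24 h after the stimulus began. Most of the fetuses were twins, and which of them shared a ewe was not given in the sources used here, so P-values measure the spread between fetuses as if these were independent.

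The labels conflict for hypoxia control replicate 1. It was taken as hypoxia control by its title and its code, which fit the stated group sizes, whereas 2 other label fields describe it as normoxic with ketamine, and values with the other reading are given where they matter. The arrays lay on 2 slides, each with fetuses of all 4 groups. The tissue label was checked with marker genes as neural tissue only, and the region within the brain was not checked. Of 29 neuronal markers 6 were on the array, and all 6 were well above background on all 16 arrays. The brightest probe was that of SST (somatostatin).

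Cyclooxygenases carry out the committed step of prostanoid synthesis. PTGS1, the other cyclooxygenase, is made steadily in many tissues, while PTGS2 is an immediate early gene that cytokines, bacterial ligands of Toll-like receptors and synaptic activity induce, mainly through NF-κB, C/EBP and CREB factors. In the brain, excitatory neurons make it in response to NMDA receptor activity, and endothelial and perivascular cells make it during inflammation, where prostaglandin E2 derived from it drives fever. Its messenger RNA is short lived.

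The sequences on the array are shown first because both PTGS2 values rest on a single spot each and the probes differ in brightness. Both were designed on the same RefSeq transcript, and the array's annotation puts their starts at positions 3117 (A_70_P039257) and 3301 (A_70_P039256), 184 bases apart, with no shared run of more than 6 bases. Only A_70_P039256 is also tied to a cluster of expressed sequence tags in that annotation. Windows of 30 of the 60 bases of each probe follow 5′ to 3′, as the deposited files give them, with the single probe of PTGS1 for contrast. Capitals mark the letters of ATTAAA or AATAAA, hexamers that in many transcripts serve as polyadenylation signals.
PTGS2, A_70_P039257, bases 19 to 48: ggagaaaaatgaaatttcATTAAAgagaaa
PTGS2, A_70_P039256, bases 31 to 60: ttggtgcctcagactatgtatgATTAAAtt
PTGS1, A_70_P012596, bases 29 to 58: gctgtttttcatgaagttAATAAAatgctt
On the printed strand ATTAAA occurs in 2.63% and AATAAA in 5.63% of the 15008 probes, and their reverse complements in 2.44% and 3.70%. The matches describe letters and not sites in use. The PTGS2 probes have a GC content of 38.3% (A_70_P039257) and 35.0% (A_70_P039256), at or under the lower quartile of all probes, which is 38.3%.

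The probe A_70_P039256 was well above background, by the scanner software's own call, on 16 of 16 arrays and saturated on 0. Its log2 normalized levels were 9.55, 10.25 and 10.95 in the normoxia control fetuses, and those given ketamine in normoxia had 8.59, 10.57, 9.24 and 9.80. The hypoxia control fetuses had 11.06, 10.96, 10.44, 12.51 and 10.60, and those given ketamine before hypoxia had 9.65, 10.32, 9.49 and 10.37. The highest of all 16 levels was that of hypoxia control replicate 4, the lowest that of normoxia + ketamine replicate 1, and the span from lowest to highest was 3.91 on the log2 scale.

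The hypoxia control mean was 11.11 ± 0.82 (SD, n = 5) and the normoxia control mean 10.25 ± 0.70 (n = 3). With ketamine, the means were 9.96 ± 0.45 after hypoxia (n = 4) and 9.55 ± 0.84 in normoxia (n = 4). The order from high to low was therefore hypoxia control, normoxia control, hypoxia + ketamine and normoxia + ketamine. Each group overlapped its neighbor in that order. In bulk tissue, fewer cells that make a transcript and less of it per cell cannot be told apart.

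**Figure D1:**
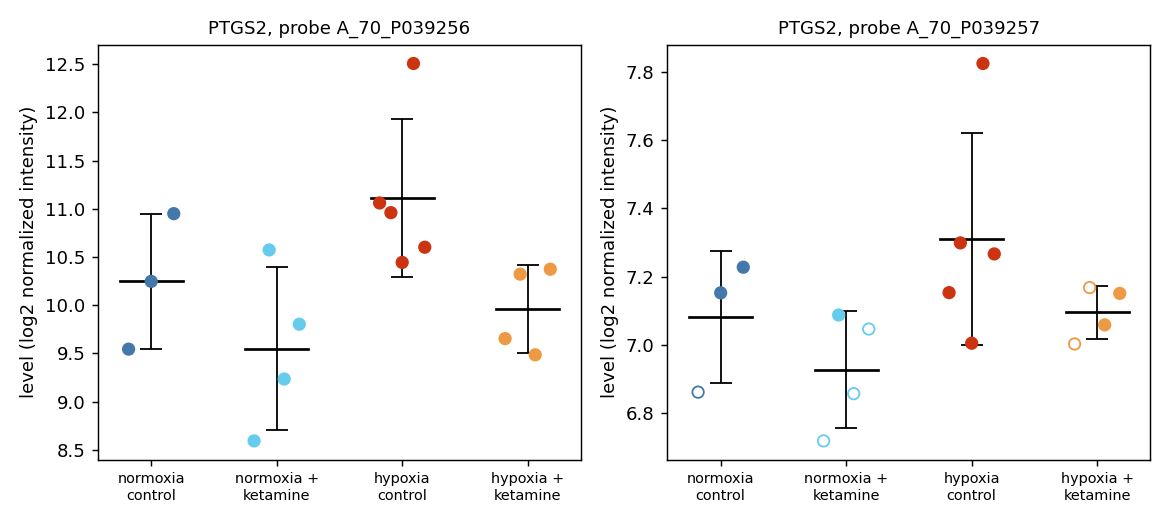
Log2 normalized level of PTGS2 by group for probe A_70_P039256 (left) and probe A_70_P039257 (right), on separate axes. Each point is 1 fetus, the horizontal line is the group mean and the error bar 1 SD; filled points were well above background and open points were not. On the left all 4 hypoxia + ketamine points, 9.49 to 10.37, lie under the lowest hypoxia control point, 10.44.

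The probe A_70_P039257 was dim and was well above background on 10 of 16 arrays, which were 5 of 5 hypoxia control, 2 of 3 normoxia control, 2 of 4 hypoxia + ketamine and 1 of 4 normoxia + ketamine arrays. Its log2 levels were 6.86, 7.15 and 7.23 in the normoxia control fetuses, and 6.72, 7.09, 6.86 and 7.05 with ketamine in normoxia. Hypoxia control fetuses had 7.15, 7.30, 7.00, 7.83 and 7.27, and those with ketamine before hypoxia had 7.00, 7.17, 7.06 and 7.15. The highest and lowest fetuses were the same as on the other probe. Means were 7.31 ± 0.31 in hypoxia control (SD, n = 5), 7.09 ± 0.08 in hypoxia + ketamine (n = 4), 7.08 ± 0.19 in normoxia control (n = 3) and 6.93 ± 0.17 in normoxia + ketamine (n = 4). Each group overlapped its neighbor in this order.

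Across the 16 fetuses the levels on the 2 probes rose together, with Pearson's r 0.93 and Spearman's rho 0.86. Both are given without a test, because the arrays share groups, slides and normalization. Without hypoxia control replicate 4 and normoxia + ketamine replicate 1, the fetuses farthest from the median, r was 0.82. Within groups, from each level minus its group mean, r was 0.90. The dim probe moved less: its log2 level changed by 0.25 per unit on the bright probe. With the scanner software's background-subtracted signal it changed by 0.93 per unit. That signal has its own background subtraction, no offset of 50 and no normalization between arrays. It includes arrays on which the dim probe was not well above background. Which of these changed the slope was not tested. On the dim probe the software's signal averaged 49.7 intensity units in hypoxia control, 31.5 in normoxia control, 27.1 in hypoxia + ketamine and 17.9 in normoxia + ketamine. On the bright probe it averaged 2429, 1494, 986 and 827 units in the same order.

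The 24 h response to hypoxia was described by hypoxia control minus normoxia control. PTGS2 was higher after hypoxia by 0.87 on the log2 scale on A_70_P039256 (SE 0.48, 95% interval −0.17 to 1.90) and by 0.23 on A_70_P039257 (SE 0.15, −0.09 to 0.55). The hypoxia control fetus had the higher level in 13 of the 15 pairs of fetuses on the bright probe and in 12 of 15 on the dim probe, and the groups overlapped on both. The bright probe's difference was 0.52 without hypoxia control replicate 4 and 0.51 without normoxia control replicate 1, and the dim probe's was 0.10 and 0.12 without the same fetuses. Within slide 1 it was 1.11 and within slide 2, where a single normoxia control fetus stood against 3 of hypoxia control, 0.23.

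The effect of ketamine given before hypoxia was described by hypoxia + ketamine minus hypoxia control, the difference for which PTGS2 was picked. On A_70_P039256 the level was lower with ketamine by 1.16 on the log2 scale, with a fitted difference of −1.16 (SE 0.45, 95% interval −2.11 to −0.20), or 2.23-fold. The interval takes no account of that choice, so its position relative to 0 is not a test. In 0 of 20 pairs of fetuses was the level higher with ketamine, and a gap of 0.07 separated hypoxia + ketamine replicate 4 (10.37) from hypoxia control replicate 3 (10.44). Groups that did not overlap in this direction were found for 0.566% of the 15008 probes. The difference was −1.02 within slide 1 and −1.25 within slide 2, −0.81 without hypoxia control replicate 4, and −1.17 without hypoxia control replicate 1.

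On the dim probe the same difference was −0.21 (SE 0.14, 95% interval −0.51 to 0.08). The level was higher with ketamine in 4 of 20 pairs, and the groups overlapped. It was −0.14 and −0.26 within slides 1 and 2, and −0.09 without hypoxia control replicate 4.

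**Figure D2:**
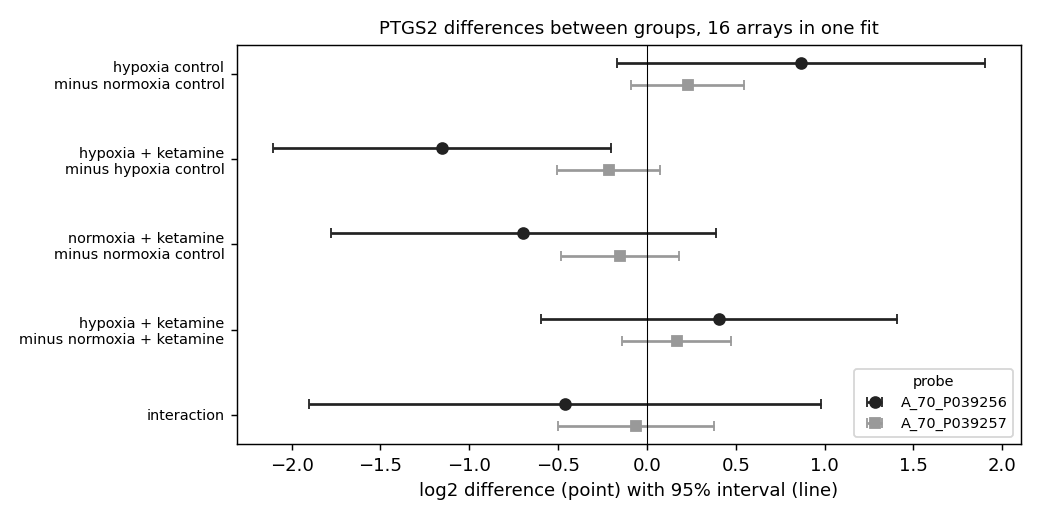
Log2 differences in PTGS2 between groups (points) with 95% intervals (lines), from a limma fit over all 16 arrays, for probe A_70_P039256 (black circles) and A_70_P039257 (gray squares). The interaction is the hypoxia difference with ketamine minus that without. The bright probe's points run from −1.16 for hypoxia + ketamine minus hypoxia control, a difference behind the choice of the gene, to 0.87 for hypoxia control minus normoxia control, and the dim probe's points from −0.21 to 0.23. The intervals take no account of that choice.

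Ketamine in normoxia, which compares neither group behind the choice of the gene, was tested. The limma SE, interval and P draw on the spread in all 4 groups, and the permutation test uses only the normoxia fetuses. A_70_P039256 was lower with ketamine by a log2 difference of −0.70 (SE 0.51, 95% interval −1.78 to 0.39), which did not pass (limma P = 0.19, Benjamini-Hochberg adjusted P = 1.00; two-sided exact permutation P = 0.34). The level was higher with ketamine in 3 of 12 pairs of fetuses. On A_70_P039257 the difference was −0.15 (SE 0.16, limma P = 0.34, exact permutation P = 0.29), with 2 of 12 pairs higher. With 4 against 3 fetuses the exact test cannot go under 0.057. The bright probe's difference was −0.31 within slide 1 and −1.43 within slide 2, where a single normoxia control fetus stood against 2 with ketamine. It was −0.34 without normoxia control replicate 3 and −0.38 without normoxia + ketamine replicate 1. The interval of the bright probe includes a difference of the size seen after hypoxia, so the 2 effects of ketamine cannot be called different from these values. Among all probes, 2.31% passed an unadjusted limma P under 0.05 in this comparison and 0 passed Benjamini-Hochberg adjustment.

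Hypoxia under ketamine was described by hypoxia + ketamine minus normoxia + ketamine. The difference was 0.41 on A_70_P039256 (SE 0.47, 95% interval −0.60 to 1.41) and 0.17 on A_70_P039257 (SE 0.14, −0.14 to 0.47). The level was higher after hypoxia in 10 of 16 pairs of fetuses on the bright probe and in 13 of 16 on the dim probe. Within slides 1 and 2 the bright probe gave 0.40 and 0.41. It gave 0.09 without normoxia + ketamine replicate 1 and 0.74 without normoxia + ketamine replicate 2, and other single fetuses left out gave 0.27 to 0.59. The interaction was −0.46 on A_70_P039256 (SE 0.67, 95% interval −1.90 to 0.98) and −0.06 on A_70_P039257 (SE 0.21, −0.50 to 0.38). On the bright probe it was −0.11 without hypoxia control replicate 4 and also without normoxia control replicate 1, −0.12 without normoxia + ketamine replicate 2, −0.81 without normoxia control replicate 3 and −0.78 without normoxia + ketamine replicate 1. When hypoxia control replicate 1 was counted among the normoxia + ketamine fetuses, as its other labels read, the bright probe's differences were −0.39 for ketamine in normoxia, 0.11 for hypoxia under ketamine and −0.77 for the interaction.

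Of 39 listed genes of arachidonate release and prostanoid synthesis, transport and reception, 9 were on the array by name besides PTGS2. For these and the following lists each gene was tested with limma across all probes, and a gene was called when its unadjusted P was under 0.05. That threshold follows the methods of the study. None of the genes in any list passed Benjamini-Hochberg adjustment over the 15008 probes, and no probe did in any of the comparisons. After hypoxia 2 of the 9 were higher and 0 lower (over all probes 3.34% were higher and 4.64% lower), with a median difference of 0.04 (all probes, −0.02). Ketamine before hypoxia gave 0 higher and 2 lower (5.49% and 3.56% of all probes), with a median of 0.02 (all probes, 0.02). The interaction gave 0 higher and 1 lower, ANXA2 (3.94% and 2.41% of all probes).

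Beginning with synthesis, PTGS1 was not called in any comparison. Its log2 levels were 10.51, 10.51 and 10.61 in the normoxia control fetuses, and 11.25, 10.51, 10.89 and 10.66 with ketamine in normoxia. Hypoxia control fetuses had 10.11, 10.77, 10.80, 10.53 and 10.57, and those with ketamine before hypoxia had 10.83, 10.96, 10.49 and 10.52. The groups overlapped in each comparison. The difference was 0.01 after hypoxia (SE 0.17, limma P = 0.94, exact permutation P = 0.89) and 0.14 with ketamine before hypoxia (SE 0.16, limma P = 0.39, exact permutation P = 0.48). PTGDS, which makes prostaglandin D2 and is an abundant transcript of brain, was not called either, with differences of −0.16 (SE 0.16) and 0.01 (SE 0.15).

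The listed receptors for prostaglandin E2 on the array were PTGER2, PTGER3 and PTGER4. PTGER3, the EP3 receptor that lowers cyclic AMP, was well above background on 16 of 16 arrays and was higher with ketamine in normoxia on 1 of its 2 probes, by 0.25 (A_70_P041076, SE 0.11, limma P = 0.045, exact permutation P = 0.11), where 0.880% of all probes were called higher. The other probe, A_70_P041077, gave 0.13 (SE 0.13) and was not called. PTGER4 was well above background on 9 of 16 arrays and PTGER2 on 3 of 16, and neither was called. A gene that the files describe as the EP1 receptor, which also binds prostaglandin E2, was named LOC443012 there, had 2 probes and was not in the list. With ketamine before hypoxia A_70_P041067 was called higher, by 0.21, and A_70_P041066 gave 0.07 and was not called.

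PTGFR, the receptor for prostaglandin F2α, gave −0.14 (SE 0.11) after hypoxia and 0.05 (SE 0.10) with ketamine before it. SLCO2A1, the transporter that carries prostaglandins into cells, gave 0.11 (SE 0.12) and 0.12 (SE 0.11). Neither was called in any comparison.

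The genes called in both of these comparisons were ANXA2 and PPARG, and neither makes, carries or binds prostaglandin E2. ANXA2 encodes annexin A2, which binds phospholipids in a calcium-dependent way. Its log2 levels were 11.74, 11.75 and 11.79 in the normoxia control fetuses, and 11.59, 11.88, 11.92 and 11.47 with ketamine in normoxia. Hypoxia control fetuses had 12.01, 12.19, 12.17, 12.02 and 12.35, and those with ketamine before hypoxia had 11.56, 11.76, 11.70 and 11.50. Every hypoxia control fetus was above every fetus of the other 3 groups. Over all probes hypoxia control lay wholly above normoxia control for 2.11%, and hypoxia + ketamine wholly under hypoxia control for 0.566%. The share of probes that separated hypoxia control from all 3 groups was not counted. ANXA2 rose by 0.39 after hypoxia (SE 0.11, limma P = 0.0024, exact permutation P = 0.036, the smallest that 5 against 3 allows). It was lower by a log2 difference of −0.52 with ketamine before hypoxia (SE 0.10, limma P = 8.63e-05, exact permutation P = 0.016, the smallest that 4 against 5 allows), and the adjusted P was 0.33 and 0.26. PPARG, a nuclear receptor that prostaglandin D2 metabolites can bind, rose by 0.21 after hypoxia (SE 0.07, exact permutation P = 0.036) and fell by 0.24 with ketamine before it (SE 0.07, exact permutation P = 0.032). The 2 comparisons share the hypoxia control fetuses.

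**Figure D3:**
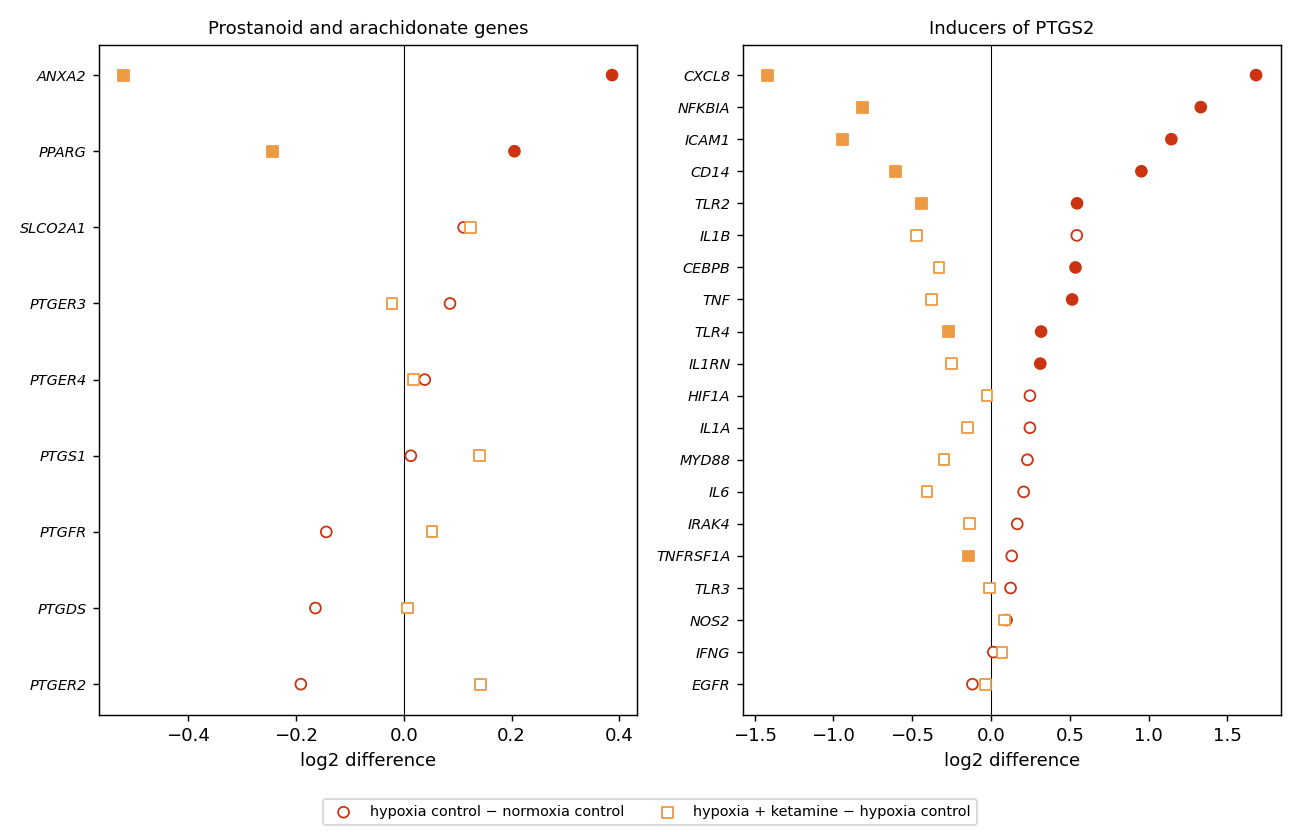
Log2 differences of the 9 prostanoid and arachidonate genes on the array (left) and of 20 genes of signals that induce PTGS2 (right), 1 probe per gene, for hypoxia control minus normoxia control (circles) and hypoxia + ketamine minus hypoxia control (squares). Filled symbols passed an unadjusted limma P under 0.05; on the right 9 circles are filled, all above 0, and 7 squares, all under 0, and the comparisons share the hypoxia control arrays.

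Of 33 listed genes of the signals that induce PTGS2, or that are induced beside it, 20 were on the array. This list, like the others, was chosen with earlier results of these data known, so its counts and P-values are a description. After hypoxia 9 were called higher and 0 lower (3.34% and 4.64% of all probes), with a median difference of 0.28 (all probes, −0.02). Ketamine before hypoxia gave 0 higher and 7 lower (5.49% and 3.56% of all probes), with a median of −0.28 (all probes, 0.02). In normoxia ketamine gave 0 calls in either direction. Over all probes 2.31% were called there, so 0 of 20 is near that share and is not a result about these genes. Under ketamine hypoxia gave 1 call, TLR3, a receptor of double-stranded RNA, which was higher by 0.19 (SE 0.08, where 3.12% of all probes were called higher). For the interaction 0 were higher and 1 of 20 lower, CD14 (3.94% and 2.41% of all probes).

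Among the receptors, TLR2, which senses bacterial lipoproteins, had log2 levels of 7.37, 7.57 and 7.69 in the normoxia control fetuses and 7.49, 7.56, 7.59 and 7.50 with ketamine in normoxia. Hypoxia control fetuses had 8.05, 7.91, 8.09, 8.66 and 7.74, and those with ketamine before hypoxia had 7.59, 7.68, 7.57 and 7.76. As on both PTGS2 probes, hypoxia control replicate 4 was the highest of all. TLR2 rose by 0.55 after hypoxia (SE 0.15, limma P = 0.0023, exact permutation P = 0.036), with no overlap between groups, which 2.11% of all probes showed in that direction. It fell by 0.44 with ketamine before hypoxia (SE 0.14, limma P = 0.0056, exact permutation P = 0.032), with overlap. CD14, the co-receptor for lipopolysaccharide, rose by 0.95 after hypoxia (SE 0.25, exact permutation P = 0.071) and fell by 0.60 with ketamine before it (SE 0.23, exact permutation P = 0.13). TLR4, which CD14 serves, rose by 0.32 (SE 0.11) and fell by 0.27 (SE 0.10).

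Downstream of these receptors, NFKBIA, the inhibitor of NF-κB that NF-κB itself induces, had log2 levels of 10.59, 10.80 and 10.52 in the normoxia control fetuses and 10.69, 10.61, 11.05 and 10.82 with ketamine in normoxia. Hypoxia control fetuses had 12.75, 11.57, 11.95, 12.72 and 10.87, and those with ketamine before hypoxia had 11.80, 11.07, 10.66 and 11.09. The rise after hypoxia was 1.33 (SE 0.35, limma P = 0.0019, exact permutation P = 0.036). All 5 hypoxia control fetuses were above the 3 of normoxia control, as for 2.11% of all probes. With ketamine before hypoxia the level fell by 0.81 (SE 0.32, limma P = 0.024, exact permutation P = 0.16), with overlap.

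CXCL8, the chemokine interleukin 8, rose by 1.68 after hypoxia (SE 0.71, exact permutation P = 0.071) and fell by 1.42 with ketamine before it (SE 0.65, exact permutation P = 0.21). Its levels in hypoxia control had an SD of 1.81. ICAM1, an adhesion molecule of endothelium, rose by 1.14 (SE 0.37, exact permutation P = 0.071) and fell by 0.94 (SE 0.34, exact permutation P = 0.048). ICAM1 was well above background in 1 of 3 normoxia control fetuses and in 5 of 5 of hypoxia control. The remaining called genes are named after their values were seen: CEBPB, TNF and IL1RN rose after hypoxia by 0.54, 0.51 and 0.31, and TNFRSF1A fell by 0.14 with ketamine before hypoxia. IL1B, the cytokine best known for inducing PTGS2, was not called, with 0.54 after hypoxia (SE 0.28, limma P = 0.072, exact permutation P = 0.21) and −0.47 with ketamine before it (SE 0.26, limma P = 0.086, exact permutation P = 0.32).

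PTGS2 is itself an immediate early gene, and 9 other such genes of 34 listed were on the array. After hypoxia 1 was called higher, ZFP36, which encodes tristetraprolin, a protein that destabilizes PTGS2 messenger RNA, by 0.27 (SE 0.10). Another, PLAU (urokinase), fell by 0.26 (SE 0.12), where 3.34% of all probes were called higher and 4.64% lower. With ketamine before hypoxia and with hypoxia under ketamine, 0 of the 9 were called on the probe that stood for the gene. Over all probes 5.49% were higher and 3.56% lower in the first comparison, and 3.12% and 3.74% in the second. A second, dimmer probe of ZFP36, well above background on 3 of 16 arrays, was called lower with ketamine before hypoxia, with −0.32. FOS, a subunit of the AP-1 factor, gave −0.55 with ketamine in normoxia (A_70_P026731, SE 0.27, limma P = 0.059, exact permutation P = 0.057) and was not called. Of its other 3 probes 1 was called lower (A_70_P016316, −0.37, limma P = 0.041, exact permutation P = 0.057, the smallest that 4 against 3 allows).

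The similarity of other genes to PTGS2 was described by Pearson's r with the level of A_70_P039256 over the 16 arrays, for 752 named genes that were well above background on at least 8 arrays. These arrays share groups, slides and normalization, so r is given without a test. Over the 752 genes the median r was −0.01, and 5% of them were above 0.57 and 5% under −0.52. The 5 highest were TLR2 (0.83), RTP4, an interferon-induced Golgi chaperone (0.74), SELP, the endothelial and platelet adhesion molecule P-selectin (0.73), ICAM1 (0.73) and IRF1, an interferon-induced transcription factor (0.72). With the dim probe A_70_P039257 these were 0.79, 0.78, 0.69, 0.74 and 0.75. Without hypoxia control replicate 4, the highest fetus on all 5 genes, they were 0.67, 0.50, 0.52, 0.44 and 0.55. Spearman's rho was 0.76 for TLR2 and between 0.42 and 0.57 for the others. These r include the group difference on which PTGS2 was picked. Within groups r was 0.72 for TLR2, and 0.51, 0.51, 0.54 and 0.55 for RTP4, SELP, ICAM1 and IRF1. By r within groups, these 4 genes ranked 43, 40, 30 and 29 of 752.

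**Figure D4:**
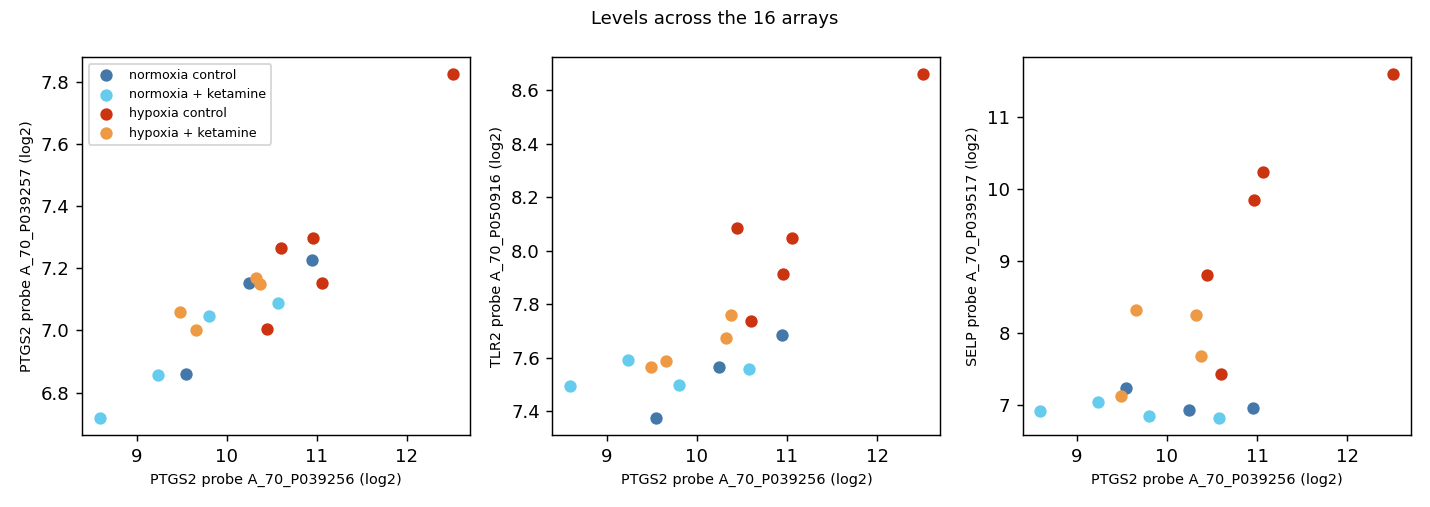
Level of PTGS2 on probe A_70_P039256 (x axis, log2) against the dim PTGS2 probe, TLR2 and SELP (y axes, log2) for the 16 fetuses, colored by group. The fetus at the top right of each panel is hypoxia control replicate 4, with 12.51 on A_70_P039256 and 8.66 on the TLR2 probe; r over all 16 is 0.93, 0.83 and 0.73 from left to right.

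The lowest r were those of NKX2.2, a transcription factor of ventral neural tube and oligodendrocyte precursors (−0.74), ATP5MC2, a subunit of mitochondrial ATP synthase (−0.73), and SHMT1, a serine hydroxymethyltransferase (−0.72), which the files themselves describe as SHMT2. Levels minus their group mean remove what the groups share. On these the highest r were PLIN1, the lipid droplet protein perilipin 1 (0.82), XCL1, a lymphocyte chemokine (0.75), and TLR2 (0.72). TLR2 was thus among the nearest genes both across and within groups. Before group means were removed, PLIN1 had r 0.50, which was 0.14 without hypoxia control replicate 4.

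Among the pathway genes, r with A_70_P039256 was 0.68 for HIF1A, the oxygen-regulated subunit of hypoxia-inducible factor, and 0.70 within groups. Of the immediate early genes JUNB and CREM had 0.68 each, PLAUR 0.59, FOS 0.43, ZFP36 0.38, EGR1 0.31, MYC 0.25, JUND 0.15 and PLAU −0.65. Without hypoxia control replicate 4, JUNB had 0.49 and CREM 0.45. The mean level of the 9 immediate early genes had r 0.77 with PTGS2, and 0.70 within groups. The mean of the 20 inducer genes had 0.71, and 0.52 within groups. The mean of the 9 prostanoid genes had −0.25, and PTGS1 alone −0.52.

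Markers of cell types were set beside these values, and their part in the PTGS2 differences was not tested. The counts of markers called stand against 3.34% of all probes higher and 4.64% lower after hypoxia, and 5.49% higher and 3.56% lower with ketamine before it. The mean level of 5 microglia and macrophage markers of 22 listed ranged from 8.42 to 8.62 in normoxia control, 8.52 to 8.78 in normoxia + ketamine, 8.72 to 9.53 in hypoxia control and 8.61 to 9.22 in hypoxia + ketamine, with 2 of 5 (CD14 and FCER1G) called higher after hypoxia and 1 (CD14) lower with ketamine before it. That of 8 endothelial markers of 17 ranged from 7.85 to 7.97, 7.79 to 7.87, 7.99 to 8.21 and 7.80 to 8.10 in the same groups. After hypoxia only 3 of the 8 differences were positive and 5 were negative, with a median of −0.08, so the higher mean does not describe most of the 8. SELP was higher by 2.54 after hypoxia (SE 0.63, exact permutation P = 0.036) and NOS3 and OCLN were lower, by differences of −0.41 and −0.38. With ketamine before hypoxia SELP fell by 1.74 (SE 0.58, exact permutation P = 0.079) and OCLN rose by 0.43 (SE 0.14, exact permutation P = 0.048). Of 3 neutrophil markers 0 were called, and MMP9 was well above background on 0 and CYBB on 2 of 16 arrays. The r of these 3 means with PTGS2 was 0.31, 0.59 and 0.43, and −0.10, 0.06 and 0.18 within groups. Of 6 neuronal markers 0 were called after hypoxia or with ketamine before it, and GRIN1 and NPY were lower in hypoxia under ketamine, by differences of −0.63 and −0.40 (3.74% of all probes were called lower). GFAP, the astrocyte filament, rose by 0.79 after hypoxia (SE 0.16, exact permutation P = 0.036) and fell by 0.54 with ketamine before it (SE 0.15, exact permutation P = 0.063), 1 of 4 astrocyte markers called in each. TTR, 1 of 3 choroid plexus markers on the array, fell by 4.30 after hypoxia (SE 1.64), with an SD of 3.73 in normoxia control. Its levels in the normoxia control fetuses were 16.00, 15.55 and 9.33. IGF2 (mean 11.95 in normoxia control and 12.37 in hypoxia control) and AQP1 (6.78 and 6.75) were not called. AHSP, 1 of 2 red blood cell markers on the array, rose by 0.89 (SE 0.34), and HBB was not called. None of 9 oligodendrocyte markers was on the array by name.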

How the data were processed

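RNA of 16 fetuses was labelled with cyanine 3 by the authors and hybridized to 1-color Agilent sheep arrays. The deposited array files hold the intensity of each of 15744 spots from Feature Extraction 10.1.1.1 per the file headers, not normalized between arrays. The authors also deposited processed log2 values, which they had background corrected and quantile normalized, and these were used as an alternative only. From the intensities, 536 control spots aside, normexp background correction (offset 50) on the mean spot signal, quantile normalization and averaging of the spots of a probe were done in R 4.3.3 with limma 3.58.1, after 222 outlier spots were left out. Between 69.2 and 76.9% of spots per array were well above background, arrays correlated at 0.984 to 0.996, and the number of arrays limits the precision. A 4-group limma model with its empirical Bayes moderated test gave all differences and P-values, and it was tested on simulated data. Alternatives were other corrections and normalizations, blocks, array weights, the other label of hypoxia control replicate 1 and leaving out each array.

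Names came from the files and a sheep RefSeq table (1656 probes, 1025 genes), and 1 probe, that with the highest mean, stood for a gene. No genome build is named for the array, so no coordinates are given. PTGS2 and the gene lists were chosen with earlier results of these data known. The text names every prostanoid gene on the array, up to 5 called genes with the largest difference per comparison and other list, the brightest gene of the neuronal list, and the genes most and least like PTGS2. PTGS2 is described on both probes.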

Additional observations from a re-analysis of the deposited data

Results flagged for a closer look

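For the interaction 5 genes of the lists were called at an unadjusted limma P under 0.05. They were 1 of 9 prostanoid, 1 of 20 inducer, 1 of 6 neuronal, 1 of 8 endothelial and 1 of 4 astrocyte genes. The inducer gene, CD14, was also 1 of 5 microglia and macrophage markers, and the remaining lists gave 0. Over all probes 3.94% were called higher and 2.41% lower, and 0 passed Benjamini-Hochberg adjustment. The calls are listed without a claim that the effect of hypoxia differed for these genes. The interaction, the hypoxia difference with ketamine minus that without, was −0.47 for ANXA2 (SE 0.15, adjusted P = 0.73), −0.74 for CD14 (SE 0.35, adjusted P = 0.78), −0.63 for GRIN1 (SE 0.27, adjusted P = 0.76), 0.54 for OCLN (SE 0.21, adjusted P = 0.75) and −0.70 for GFAP (SE 0.23, adjusted P = 0.73). In the 3 groups of 4 or 5 fetuses, none stood apart from its group by Dixon's test on either PTGS2 probe or on the prostanoid genes and those most or least like PTGS2 (about 1 group in 20 does so by chance), and the 3 normoxia control fetuses were too few for it. The nearest was hypoxia control replicate 4 on A_70_P039256, whose gap to the next fetus was 0.70 of the group's range against a critical value of 0.71.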

How the results depend on the processing

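On A_70_P039256 every difference kept its direction under all alternatives and with each fetus left out. Hypoxia + ketamine minus hypoxia control lay between −1.28 and −1.13 over 13 alternatives and between −1.32 and −0.81 with a fetus left out, and ketamine in normoxia between −0.91 and −0.39 and between −1.04 and −0.34, with limma P never under 0.05. The sources do not say that a replicate number marks a shared ewe or day. Deviations from the group means correlated between −0.11 and 0.37 (median 0.04) in 21 pairs of fetuses with the same number. In 74 pairs with other numbers they correlated between −0.30 and 0.20 (median −0.02). Because hypoxia was given through the ewe, fetuses of 1 ewe share the stimulus. Same-number pairs with and without ketamine had r 0.35, 0.26 and 0.04 in normoxia (replicates 1 to 3). In hypoxia they had 0.26, 0.37, −0.11 and 0.05 (replicates 1 to 4). Of same-number pairs that differed in stimulus, only that of normoxia + ketamine and hypoxia + ketamine replicate 4 lay above 0.20, with 0.23. Whether any pair shared a ewe was not tested, and the numbers were not taken as pairs in the main fit. With the replicate number as a block over all 4 groups, the normoxia difference of A_70_P039256 was −0.91 and again did not pass. Its limma P was 0.056 with the block and 0.19 without. This block joins fetuses that differed in stimulus, so it cannot stand for a ewe. A block of the number within each stimulus was not fitted. With the block the interaction of A_70_P039257 turned from −0.06 to 0.0033. It also turned, to 0.067 and 0.05, without hypoxia control replicate 4 and normoxia control replicate 1, its range being −0.14 to 0.067. On A_70_P039257 the software's processed signal gave larger differences: 1.07 after hypoxia, −0.79 with ketamine before it and 0.89 for hypoxia under ketamine with scaling to the 75th percentile, and 1.14, −0.71 and 0.99 with quantile normalization.

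With ketamine before hypoxia 7 inducer genes were called lower, against 2 when only the compared groups were in the fit, and 3 to 10 with a fetus left out (4 without hypoxia control replicate 4, 3 without hypoxia + ketamine replicate 4). The 9 called higher after hypoxia were 6 to 12. The 2 prostanoid genes higher after hypoxia were 1 with hypoxia control replicate 1 in normoxia + ketamine. Of the 5 genes most like PTGS2, 2 stayed among the first 5 with the 75th percentile scaling and 1, TLR2, by Spearman's rho. The calls of PLAU, CXCL8 with ketamine before hypoxia, PTGER3 and the interaction of CD14 were lost in more than 10 of the refits. A_70_P039257 was not well above background on 3 of 4 normoxia + ketamine arrays, so its level there is limited by the signal. The cause of these changes was not tested.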
